A study of Mus musculus with 2 samples.

Results

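B cells of the choroid preparation were the 723 barcodes, of 3377 barcodes with at least 1500 UMIs and 200 genes, that carried RNA of the B cell markers Cd79a, Cd79b and Ms4a1. A UMI (unique molecular identifier) stands for 1 captured RNA molecule. A B cell had at least 3 UMIs of these 3 genes together, 0 UMIs of the T cell genes Cd3d, Cd3e and Cd3g, at most 2 UMIs of Lyz2 and Nkg7, which mark myeloid and natural killer cells, and at most 1 UMI of Rgr and Rdh5, which mark the retinal pigment epithelium (RPE). The cells were thus chosen by the measured levels of these genes, which are given as a description. The Tsc1 flox library held 404 B cells of 1530 barcodes, and the Tsc1 RPE KO library held 319 of 1847.

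The study profiled RPE and choroid of mice by droplet single-cell RNA sequencing of 3' ends. The Tsc1 flox mice carried the conditional allele Tsc1tm1Djk/J without a Cre. The Tsc1 RPE KO mice carried that allele together with Best-Cre, whose promoter acts in the RPE per the labels, and B cells are not the cells it targets. The mice of both groups were 10 weeks old, and each library pooled 1 male and 1 female. The neuroretina was taken off, the eye cup was digested with collagenase, dispase and trypsin, and live cells were sorted before loading, so the shares of cell types depend on digestion and sorting as well as on the tissue.

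Each genotype was 1 library, called the flox and the KO library here. There was no replicate check and no test between genotypes, and all intervals are exact 95% intervals that cover counting error only. The B cells held 1632383 UMIs in the flox library and 1325432 in the KO library. UMIs per B cell ran from 1520 to 21619 with a median of 3906.5 in the flox library, and from 1506 to 16771 with a median of 3876 in the KO library. Median genes per cell were 1500.5 and 1497. Ribosomal protein genes gave a median of 29.2% and 30.1% of a B cell's UMIs, and mitochondrially encoded genes 2.93% and 2.87%. 2 barcodes past the minimums occurred in both libraries, and both were B cells in the flox library and not in the KO library. Scrublet marked 0 B cells as doublets in the flox library and 3 in the KO library, and none were removed.

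B cells are the lymphocytes that recognise antigen through a membrane-bound antibody, the B cell receptor. The receptor pairs heavy chains with light chains of the kappa or the lambda kind and signals through Cd79a and Cd79b. A naive B cell makes heavy chains of the mu and delta kinds (Ighm and Ighd) from 1 rearranged gene, and after activation it can switch to gamma, alpha or epsilon chains. Follicular and marginal zone B cells are mature naive subsets of the lymphoid organs, and circulating B cells pass through the vessels of most tissues, the choroid among them.

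Cd79a, the gate gene with a promoter window in the RefSeq table used, lies on chromosome 7 of GRCm38.p6. Its window is shown because Ebf1, the most widely detected of 22 listed transcription factors in these cells, is known to act on this promoter. The window at chr7:24897247-24897546, plus strand, runs from 250 bases before to 50 after the annotated start. The capitals mark an EBF-type motif, CAAGGGA, and then an ETS-type motif, AGGAAGT.
Cd79a promoter: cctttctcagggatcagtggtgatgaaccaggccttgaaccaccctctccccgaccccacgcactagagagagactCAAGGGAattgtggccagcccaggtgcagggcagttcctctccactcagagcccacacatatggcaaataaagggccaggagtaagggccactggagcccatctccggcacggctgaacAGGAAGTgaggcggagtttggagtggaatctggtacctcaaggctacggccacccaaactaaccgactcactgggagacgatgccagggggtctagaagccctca
Both strands were searched, and the 2 motifs do not overlap in this window. CAAGGGA occurs in 5.06% of the 32851 windows of the table and AGGAAGT in 9.35%. Of 18 genes, the 3 of the gate and the 15 most restricted to B cells, 10 had a window. Of these 10, CAAGGGA was in 1, Cd79a, and AGGAAGT in 2, Cd79a and Vpreb3. The octamer ATGCAAAT, in 1.74% of all windows, was in 1, Vpreb3. A match describes letters and shows no binding.

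The gate met few borderline barcodes. The sum of Cd79a, Cd79b and Ms4a1 ran from 5 to 80 UMIs per B cell in the flox library and from 7 to 89 in the KO library, with a median of 24 in both. Among barcodes that met the other conditions, none had a sum of 3 or 4. The nearest below the threshold were 2 barcodes with 2 UMIs in the flox library, and 12 barcodes with 1 UMI in each library, with a median of 0 Cd74 UMIs. Of 420 and 334 barcodes with at least 3 marker UMIs, the exclusions left out 16 in the flox library and 15 in the KO library. Cd79a stood at 3390 and 3391 CPM (UMIs per 1000000 UMIs of the summed B cells), Cd79b at 2059 and 2038 CPM and Ms4a1, the gene of CD20, at 1094 and 1007 CPM.

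**Figure D1:**
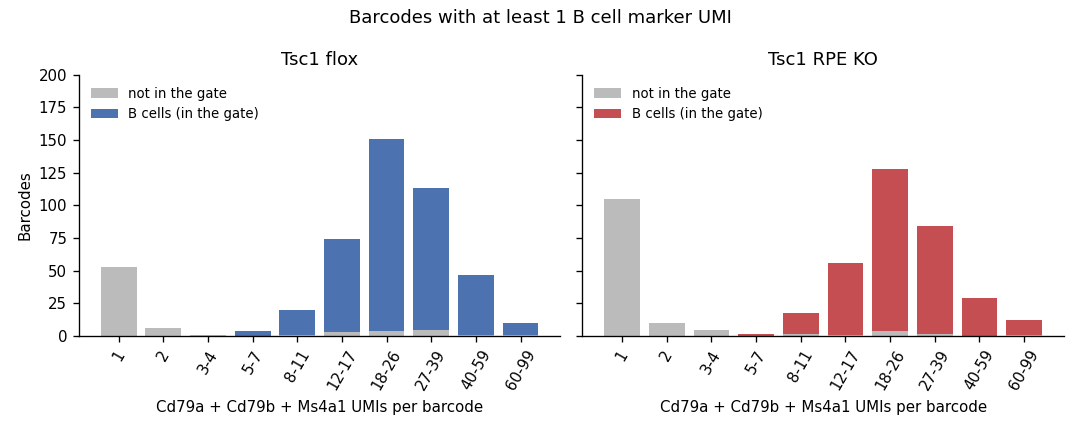
UMIs of Cd79a, Cd79b and Ms4a1 per barcode (x axis, binned) against the number of barcodes (y axis), for barcodes with at least 1 such UMI, with B cells coloured and barcodes outside the gate grey. B cells begin at 5 UMIs in the flox library and 7 in the KO library, and the bins between 1 UMI and that point hold few barcodes.

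Ebf1, Pax5 and Cd74, which the gate did not use, were detected in most B cells. Ebf1, a transcription factor of B cell commitment, had a UMI in 99.01% of B cells in the flox library and 99.7% in the KO library. Pax5, which holds B cell identity, had one in 65.6% and 56.4%. Cd74, the invariant chain of MHC class II, had one in 100% and 99.4%. T cells of the same libraries served as the type that should lack these genes. They were 324 and 349 barcodes with at least 2 Cd3 UMIs and 0 B cell marker UMIs, at median depths of 5598.5 and 5043 UMIs. Pax5 had a UMI in 0 of them in both libraries, and Cd74 in 7.72% and 8.02%. The 0 B cell marker UMIs asked of the T cells may have lowered these shares. Ebf1 RNA was not particular to B cells among all barcodes. Of those that met the exclusions and had 0 B cell marker UMIs, 57.4% in the flox library and 39.0% in the KO library had an Ebf1 UMI. Cd74 RNA was not particular to B cells either. It stood at 1385 and 1835 CPM in all other barcodes, against 14172 and 14084 CPM in B cells.

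**Figure D2:**
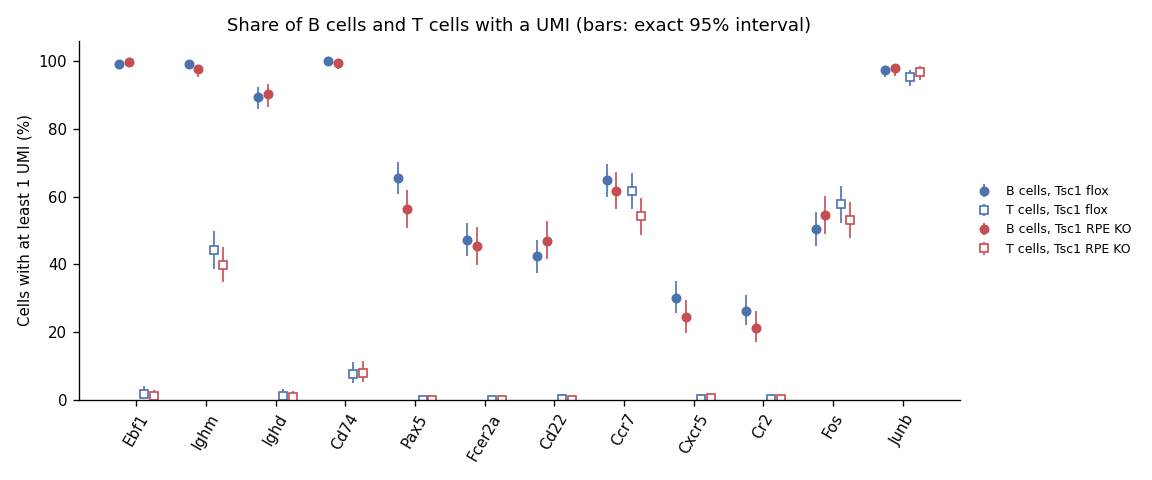
Share of cells with at least 1 UMI (y axis, percent) of 12 genes in B cells (filled circles) and T cells (open squares) of each library, with exact 95% intervals. Pax5 lies at 65.6% and 56.4% of B cells and at 0 in T cells, while Ccr7, Fos and Junb are seen in both cell types.

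The 15 genes most restricted to B cells included 4 immunoglobulin chain genes, Iglc1, Iglc2, Igkc and Ighd. Genes were ranked by CPM in B cells over CPM in all other barcodes, taking the lower of the 2 libraries, and the ranking is a description because the gate chose the cells. The 15 leading genes were Iglc1, Mzb1, Pax5, Gm30211, Iglc2, Vpreb3, Fcmr, Igkc, Ighd, Cxcr5, Pou2af1, Gm31243, Fcrla, Tnfrsf13c and Fcer2a. Mzb1, a helper of antibody assembly in the endoplasmic reticulum, stood 165-fold above the other barcodes in the flox library and 136-fold in the KO library. Fcmr, the receptor for IgM, stood 104-fold and 117-fold above. Tnfrsf13c, the receptor of the survival factor BAFF, stood 77.4-fold and 167-fold above. Cxcr5, the chemokine receptor that leads B cells into follicles, stood 157-fold and 84.4-fold above.

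RNA of other cell types was low in most B cells and high in 8 of them. Rpe65 and Best1 (RPE), Cd4 and Cd8a (T cells), Siglech (plasmacytoid dendritic cells) and Ppbp and Pf4 (platelets) were at 0 UMIs in the B cells of both libraries. Other listed markers were not at 0. In the flox and the KO library, the RPE list had a UMI in 13 and 26 B cells, and the T cell list in 26 and 12. Myeloid markers had one in 20.5% and 25.7% of B cells, endothelial markers in 24.5% and 24.8%, and rod markers in 10.4% and 16.9%. The median was 0 UMIs per cell for each of these lists. The 5 endothelial genes held 134 and 109 UMIs in all. Pecam1 alone had 128 and 104 UMIs without the 8 B cells high in RNA of other types. Tyrobp had 64 and 59 UMIs without those 8 cells, where the myeloid list held 155 and 104 in all. Erythroid markers had a UMI in 64.4% of B cells in the flox library and 37.3% in the KO library, with medians of 1 and 0 UMIs per cell. A search made after the values were seen found 3 B cells in the flox library and 5 in the KO library with at least 10 UMIs of another type's marker list, called mixed barcodes here. The largest, in the KO library, held 12000 erythroid UMIs of 16771. In the same library 2 more held 97 and 145 rod UMIs and 1 held 95 fibroblast UMIs. The largest of the flox library held 52 myeloid and 25 natural killer UMIs of 21619.

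B cells took a smaller share of the KO library. They were 26.4% of barcodes in the flox library (24.2 to 28.7%) and 17.3% in the KO library (15.6 to 19.1%), a ratio of 0.654. The 2 counting intervals do not overlap, but a share of a sorted and digested pool falls when any other cell type is more frequent, and mice and preparations were not replicated. T cells for comparison were 324 of 1530 barcodes in the flox library and 349 of 1847 in the KO library.

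Each library held cells of 1 male and 1 female, which sex-linked RNA separates in part. Xist, the RNA that silences an X chromosome, was detected without a Y-linked UMI in 161 B cells of the flox library and 154 of the KO library. A Y-linked UMI without Xist was detected in 135 and 80 B cells, both kinds in 3 and 1, and neither in 105 and 84. Among barcodes with Xist and no Y-linked UMI, B cells were 26.2% (22.8 to 29.9%) in the flox library and 15.4% (13.3 to 17.8%) in the KO library. Among barcodes with a Y-linked and no Xist UMI, they were 28.1% (24.1 to 32.3%) and 21.9% (17.8 to 26.5%). The share was thus lower in the KO library in both classes, and in the Y-linked class the intervals overlap. Detection of these genes varies with depth and cell type, so the classes cover only part of each animal's cells.

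Most B cells had the heavy chain pattern of naive cells. Ighm and Ighd were detected together in 88.6% of B cells in the flox library (85.1 to 91.5%) and 89.0% in the KO library (85.1 to 92.2%). Ighm alone was detected in 42 and 27 cells, Ighd alone in 3 and 4, and neither in 1 and 4. The level of Ighm was 2830 CPM in the flox library and 2487 CPM in the KO library, and that of Ighd was 995 and 925 CPM. Ighm had a UMI in 44.1% and 39.8% of T cells, so its presence alone does not mark a B cell here, whereas Ighd had one in 1.23% and 0.86% of T cells.

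Switched B cells were rare. A cell with at least 5 UMIs of gamma, alpha or epsilon chains, and more of them than of Ighm and Ighd together, occurred 1 time in the flox library (0.248%, 0.00627 to 1.37%) and 5 times in the KO library (1.57%, 0.511 to 3.62%). The cell of the flox library carried 15 Ighg1 UMIs. Of the cells of the KO library, 2 carried Ighg1 (32 and 6 UMIs), 2 carried Ighg2b (29 and 13 UMIs) and 1 carried Igha (10 UMIs). Any UMI of a switched chain was found in 7 cells of the flox library (1.73%, 0.699 to 3.54%) and 19 of the KO library (5.96%, 3.62 to 9.15%). The cell with 32 Ighg1 UMIs also carried 7 Ighg2b, 174 S100a6 and 166 Crip1 UMIs among 12377 UMIs. S100a6 encodes a calcium-binding protein and Crip1 a LIM-domain protein. It also held RNA of both light chain kinds, 161 Igkc and 140 Iglc2 UMIs.

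1 cell of the KO library had the RNA of a B cell precursor. It held 19 UMIs of Vpreb1 and 11 of Igll1, which together form the surrogate light chain of the pre-B cell receptor, 6 of Dntt, the polymerase that adds bases at V(D)J joints, and 3 of Rag2, a subunit of the V(D)J recombinase. Its light chain genes were at 0 UMIs, and it held 27 UMIs of Vpreb3. It carried 6181 UMIs in all and 13 of Cd79a.

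Several genes of later or dividing stages were seen in few cells. Jchain, which joins secreted IgM and IgA, had a UMI in 2 cells of the flox library and 5 of the KO library. Mki67, Top2a, Cdk1, Ccnb2 or Birc5, genes of dividing cells, had a UMI in 11 and 10 cells. Cd5, a marker of B-1a cells, had 0 and 1 UMIs over all B cells, and Prdm1, the plasma cell regulator, 1 and 1. Other members of their lists had more. The 5 B-1 genes held 42 and 39 UMIs in all, and the 7 plasma cell genes 213 and 153. Cr2, the complement receptor CD21, and Fcer2a, CD23, were detected together in 56 and 40 cells. Low counts per cell mean that a gene of these groups at 0 in a cell may still be expressed.

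By light chain RNA more B cells were kappa than lambda, and many met neither limit. Light chain UMIs (Igkc, Iglc1, Iglc2 and Iglc3) had a median of 55 per cell in the flox library and 56 in the KO library. With over 80% of at least 5 such UMIs asked of 1 chain, 245 cells of the flox library were kappa, 23 lambda (5.69%, 3.64 to 8.42%) and 136 neither. In the KO library 185 were kappa, 18 lambda (5.64%, 3.38 to 8.77%) and 116 neither. With over 50% asked, lambda cells were 9.16% (6.53 to 12.4%) and 11.3% (8.03 to 15.3%). With over 90% asked, kappa cells were 25.2% and 31.0%, lambda cells 5.20% and 5.02%, and 69.6% and 63.9% were neither. The number of kappa cells thus depends on the limit, and the classes named below use 80%. The lambda shares of the libraries lie within each other's intervals at each limit.

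Lambda RNA was present in most B cells. The median B cell took 17.1% of its light chain UMIs from lambda genes in the flox library and 17.2% in the KO library. In kappa cells, Iglc2 had a UMI in 86.1% and 85.4% of cells, with a mean of 3.64 and 3.20 UMIs per cell, and Iglc3 in 84.9% and 88.6%. Iglc1 had one in 44.5% and 33.5%, with means of 1.32 and 0.643. T cells, at higher depth, had an Iglc2 UMI in 0.309% and 0 of cells, an Iglc3 UMI in 0.617% and 0, and an Iglc1 UMI in 0 and 0.287%. The lambda UMIs of kappa cells were thus above the level in T cells of the same libraries.

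Lambda cells carried the same genes in other proportions. Iglc1 stood 19.5-fold higher in lambda than in kappa cells in the flox library (17.1 to 22.4) and 50.1-fold in the KO library (41.1 to 61.6), measured as CPM. Iglc2 stood 3.88-fold and 3.46-fold higher, and Iglc3 2.64-fold and 4.10-fold. In lambda cells Igkc stood 45.3-fold (32.5 to 65.0) and 30.9-fold (22.1 to 44.6) lower than in kappa cells, with a UMI in 39.1% and 38.9% of cells. Because the classes were cut on these genes, the folds describe them and test nothing. Iglc2 and Iglc3 are near-identical copies and the counting may have split their reads, so the division between these 2 genes is uncertain. The variable genes give a separate reading. Iglv1 had a UMI in 30.4% and 44.4% of lambda cells and in 1.63% and 0.541% of kappa cells, and Iglv3 in 17.4% and 5.56% of lambda cells and 7.35% and 4.86% of kappa cells.

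**Figure D3:**
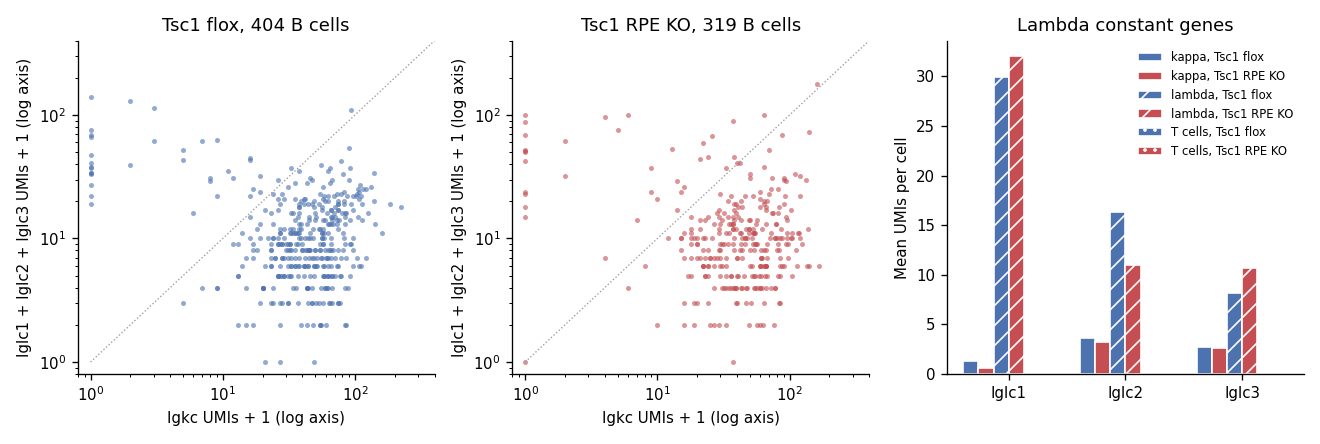
Left and middle, Igkc UMIs + 1 (x axis, log) against summed Iglc1, Iglc2 and Iglc3 UMIs + 1 (y axis, log) of each B cell, with a dotted line at equal counts. Right, mean UMIs per cell of the 3 lambda constant genes (y axis) in kappa, lambda and T cells of each library, where lambda cells have the tallest bars and kappa cells lie above T cells for each gene.

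Of 9 genes compared that the classes did not use, Vpreb3, Ighm and Fcer2a had intervals away from 1 on the same side in both libraries, and so did Cd79b. Vpreb3, a chaperone-like partner of immunoglobulin chains, stood at 632 CPM in lambda and 312 CPM in kappa cells of the flox library, 2.02-fold (1.53 to 2.64). In the KO library it stood at 621 and 308 CPM, 2.02-fold (1.43 to 2.79). Single cells gave up to 23.5% and 24.4% of the Vpreb3 UMIs of lambda cells. Ighm was 1.25-fold (1.12 to 1.40) and 1.81-fold (1.59 to 2.05) higher in lambda cells, while Fcer2a was 1.89-fold (1.11 to 3.52) and 6.08-fold (2.05 to 29.8) lower, from 14 and 3 UMIs. Cd79b was 1.16-fold (1.01 to 1.33) and 1.57-fold (1.35 to 1.81) higher. Cd79a had lambda to kappa ratios of 1.002 and 1.27, Cd74 0.968 and 0.828, Ighd 0.829 and 0.755, and Mzb1 0.757 and 0.977. Cr2 lay on opposite sides, at 0.547 and 1.25, from 6 and 7 UMIs in lambda cells. Cells are not replicates, so these intervals understate the error, and 23 and 18 lambda cells limit the reading.

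Variable genes showed many receptors and no dominant one. Ighv genes had a UMI in 157 B cells of the flox library and 153 of the KO library, over 69 and 73 of 185 genes. The most frequent were Ighv3-6 with 15 cells in the flox library and Ighv1-26 with 11 in the KO library. Igkv genes had a UMI in 203 and 127 cells, over 59 and 55 of 160 genes, led by Igkv12-46 with 19 cells and Igkv1-135 with 11. Reads from the 3' end reach variable segments seldom, and related segments share sequence, so clones were not called.

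Among B cells, the gene that varied most was the light chain gene Iglc1. The variance over the mean of counts (Fano factor), after each cell was thinned to 1500 UMIs, was 14.2 and 18.8 for Iglc1, 6.96 and 7.80 for Igkc, 5.87 and 8.11 for the nuclear RNA Malat1, and 4.06 and 4.09 for Iglc2. Ly6d, a surface protein of B cells, gave 3.78 and 4.34 and Cd74 3.37 and 3.69. Fos and Junb, immediate early transcription factors that enzymatic dissociation is known to induce, gave 2.91 and 3.98, and 2.91 and 2.86. Fos had a UMI in 50.5% and 54.5% of B cells and in 57.7% and 53.0% of T cells. Actb gave 3.699 and 4.35, and Crip1 and Ifi30 were also among the 12 leading genes. Ighg1, another of the 12, had its UMIs in 1 and 2 cells.

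Most genes lay within 1.5-fold between the B cells of the 2 libraries. Of 5745 measured genes, those with at least 50 UMIs over both libraries, 154 were at least 1.5-fold higher in the KO library (2.68%), 254 at least 1.5-fold lower (4.42%), and 408 either (7.1%). Without the 8 mixed barcodes 151 were higher and 236 lower. The fold is a size and not a test. The median log2 ratio over all measured genes was -0.03. The share past 1.5-fold was 13.8% among genes with 50 to 99 UMIs, 6.04% at 100 to 199, 1.47% at 200 to 499 and 0.935% at 500 or more, so most such genes had few counts. Tsc1 itself, the conditional gene, had 42 and 38 UMIs, 25.7 and 28.7 CPM, a ratio of 1.11 (0.699 to 1.77). Counts at the 3' end do not test the deletion. Ppp1r1b, the gene of DARPP32, had 0 UMIs in the B cells of both libraries.

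**Figure D4:**
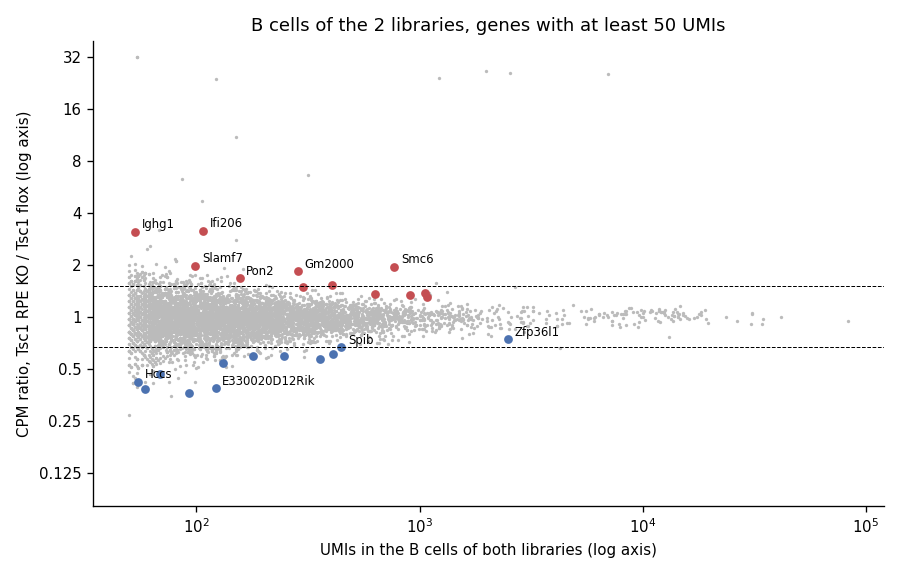
UMIs of each measured gene in the B cells of both libraries (x axis, log) against the CPM ratio of the KO to the flox library (y axis, log), with dashed lines at 1.5-fold. Coloured points are the 24 ranked genes, 10 of them labelled, and the spread narrows as UMIs increase. The grey points highest on the y axis are haemoglobin genes, and 1 mixed barcode held 12000 of the 12167 erythroid UMIs of its library.

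The genes higher in the KO library included members of the Ifi200 family and of genome maintenance. The 12 ranked genes of each direction are those, of 2424 genes ranked, whose interval lies farthest from 1. The ranking left out markers of other cell types. It also left out 3317 of the 5745 measured genes, which had more RNA in barcodes of 10 to 100 UMIs, taken as free RNA, than in B cells. A gene so left out can differ as much as a ranked one, as did Crip1 at 1.49-fold higher (1.38 to 1.61). Ifi206 (chr1:173468485-173491041, minus strand, mm10), of the family of DNA sensors and interferon-inducible nuclear proteins, had 18.4 CPM (12.4 to 26.2) in the flox library and 58.1 CPM (45.8 to 72.6) in the KO library, 3.16-fold (2.05 to 4.99). Ifi209, a second member at chr1:173630917-173647928, plus strand, had 184 and 249 CPM, 1.35-fold (1.15 to 1.58). Related sequences of this family may share reads. Slamf7, a receptor of immune cell adhesion, had 23.3 and 46.0 CPM, 1.98-fold (1.30 to 3.05).

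Smc6, a subunit of the SMC5/6 complex of DNA repair, had 183 CPM (162 to 205) in the flox library and 356 CPM (325 to 390) in the KO library, 1.95-fold (1.68 to 2.26). It was detected in 44.1% and 63.6% of B cells. Smc6 differed as much in the barcodes outside the B cells, at 163 and 355 CPM. Nsmce1, a subunit of the same complex, had 82.7 and 124 CPM, 1.496-fold (1.18 to 1.89). Outside the B cells Nsmce1 was not higher in the KO library, at 41.9 and 36.4 CPM. Its B cell ratio was 1.90 (1.32 to 2.78) in Xist cells and 1.07 (0.675 to 1.68) in Y-linked cells. Mzb1 had 305 and 419 CPM, 1.37-fold (1.21 to 1.55). Pim1, a survival kinase, had 265 and 356 CPM, 1.34-fold (1.18 to 1.53). The others of the 12 were Gm2000, Gm11361, Pon2 and BC004004, between 1.29-fold and 1.85-fold, and Ighg1, whose 15 and 38 UMIs came from 1 and 2 cells.

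The genes lower in the KO library held interferon-inducible and B cell regulatory genes. Trim30a, an interferon-inducible regulator of Toll-like receptor signalling, had 150 CPM (132 to 170) in the flox library and 86.0 CPM (70.9 to 103) in the KO library, 1.75-fold lower (1.39 to 2.20). Ifi214, another Ifi200 member (chr1:173519717-173535957, minus strand), had 168 and 102 CPM, 1.65-fold lower (1.34 to 2.04). Cmpk2, a mitochondrial nucleotide kinase induced by interferon, had 27.6 and 10.6 CPM, 2.61-fold lower (1.41 to 5.15). Members of 1 gene family thus lay on both sides.

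Spib, an ETS transcription factor of mature B cells, had 177 CPM (157 to 199) in the flox library and 118 CPM (100 to 138) in the KO library, 1.504-fold lower (1.23 to 1.84). Zfp36l1, a protein that destabilises AU-rich mRNAs, had 953 and 707 CPM, 1.35-fold lower (1.24 to 1.46). Rabep1, an effector of the endosomal GTPase Rab5, had 55.7 and 30.2 CPM, 1.85-fold lower (1.26 to 2.75). Hsph1, a heat shock chaperone, had 102 and 60.4 CPM, 1.69-fold lower (1.29 to 2.24). E330020D12Rik, Wfdc21, Hccs, Lrig2 and Rassf2 were between 1.69-fold and 2.78-fold lower, and single cells gave up to 30.6% of the Wfdc21 UMIs.

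T cells of the same libraries gave a second reading for genes both types express. Of the 12 higher genes 10 were measured in T cells, 9 in the same direction and 4 of these past 1.5-fold. Ifi206 was 5.43-fold higher in T cells of the KO library (3.77 to 8.03), Smc6 1.99-fold (1.75 to 2.28), Slamf7 1.97-fold (1.39 to 2.83) and Ifi209 1.63-fold (1.34 to 1.97). Of the 12 lower genes 8 were measured, 5 in the same direction and none of these past 1.5-fold. Zfp36l1 was 1.34-fold lower in T cells (1.20 to 1.51) and Hsph1 1.33-fold lower (1.08 to 1.63). Trim30a was not lower there, at a ratio of 1.21 (0.984 to 1.49). Both cell types of a genotype come from the same 2 mice and the same library, so T cells are no replicate.

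The sex-linked classes divide each library by animal, and they separated some of these genes from others. The largest mixed barcode of each library, at 21619 UMIs (flox) and 16771 UMIs (KO), fell in the Y-linked class. The effect of these barcodes on the ratios of that class was not tested. Ifi206 was 3.02-fold higher in cells with Xist (19.4 and 58.8 CPM) and 3.51-fold in cells with Y-linked RNA (17.7 and 61.9 CPM). Mzb1 was 1.47-fold and 1.42-fold higher, and Zfp36l1 had ratios of 0.726 and 0.724. Smc6 was 2.15-fold higher (1.76 to 2.65) in Xist cells and 1.34-fold (0.983 to 1.83) in Y-linked cells. Pim1 was 1.80-fold higher (1.47 to 2.21) and 1.07-fold (0.835 to 1.36). Trim30a had a ratio of 0.735 (0.528 to 1.02) in Xist cells and 0.451 (0.261 to 0.747) in Y-linked cells. Cmpk2 had 11 and 13 UMIs in Xist cells and 18 and 1 in Y-linked cells, so its difference lay in the Y-linked class. Hsph1 likewise had 62.8 and 63.2 CPM in Xist cells and 131 and 64.9 CPM in Y-linked cells.

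**Figure D5:**
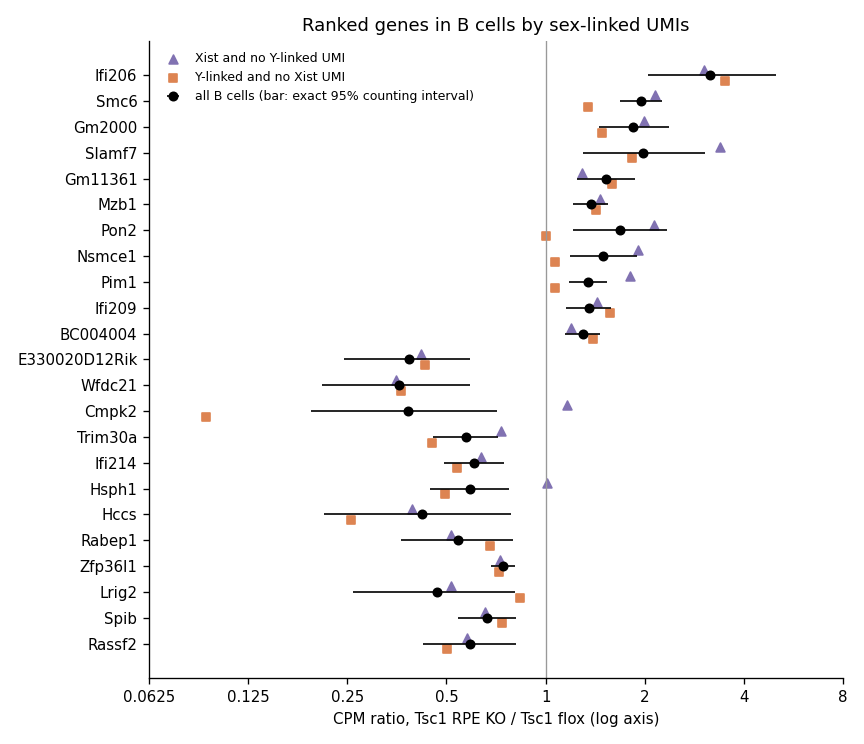
CPM ratio of the KO to the flox library (x axis, log) of 23 ranked genes (Ighg1 left out) in all B cells, with exact 95% counting intervals, in cells with Xist and no Y-linked UMI (triangles) and in cells with a Y-linked and no Xist UMI (squares). Ifi206, Mzb1 and Zfp36l1 have like ratios in both classes, and Cmpk2 and Hsph1 lie near or above 1 in the Xist class and below 1 in the Y-linked class.

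No gene of the naive and follicular list passed 1.5-fold. Of all measured genes 7.1% passed, so 0 of 10 does not set the list apart. All 10 were measured, and all 10 had a ratio below 1, with Klf2 at 0.996 nearest to it (above 1 under TMM scaling) and a median log2 ratio of -0.18 against -0.03 over all measured genes. Bach2, a repressor that keeps B cells from plasma cell fate, had 227 and 164 CPM, a ratio of 0.726 (0.611 to 0.860). Cxcr5 had 96.8 and 70.2 CPM, a ratio of 0.725 (0.555 to 0.942), and Cr2 96.8 and 69.4 CPM, a ratio of 0.717. Klf2, which maintains quiescence and recirculation, was level at 1845 and 1837 CPM. In Xist cells 9 of the 10 had a ratio below 1 with a median of -0.38, where all measured genes had a median of -0.01. In Y-linked cells 7 of 10 had one, with a median of -0.08, the same as the -0.08 over all measured genes. The Y-linked class held the largest mixed barcode of each library, with 12000 erythroid UMIs in the KO library. The effect of these barcodes on the medians of that class was not tested.

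No measured gene of the receptor or its signalling chain passed 1.5-fold. Of 11 receptor and coreceptor genes 0 passed 1.5-fold, beside 7.1% of all measured genes. So 0 of 11 does not set the receptor genes apart, and the same holds for the 2 lists below. The median log2 ratio of the receptor and coreceptor genes was -0.01. Cd81, a tetraspanin, had 188 and 201 CPM. Of 15 signalling genes 14 were measured and 0 passed, with a median of -0.16. Syk, the kinase that binds Cd79a and Cd79b, had 510 and 438 CPM, a ratio of 0.857, and Lyn 348 and 365 CPM, a ratio of 1.05. Of 10 inhibitory receptor genes 9 were measured and 0 passed, with a median of 0.02, and Cd22, which dampens receptor signals, had 161 and 177 CPM.

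Transcription factors lay mostly below 1. All 22 were measured and 1 passed 1.5-fold (Spib, lower), beside 4.42% lower among all measured genes. Of the 22, 17 had a ratio below 1, and the median log2 ratio was -0.12. The median over all measured genes was also below 0, at -0.03. Pax5 had 308 and 226 CPM, a ratio of 0.732 (0.632 to 0.846), and the ratio was 0.645 in Xist cells and 0.854 in Y-linked cells. Ebf1 had 2537 and 2658 CPM, a ratio of 1.05. Pou2f2 and its coactivator Pou2af1, which act on immunoglobulin promoters, had ratios of 1.004 and 0.928. Id3, an inhibitor of E proteins, had 90.7 and 114 CPM, a ratio of 1.26.

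No measured gene of antigen presentation passed 1.5-fold. Of 10 MHC class II genes 0 passed, beside 7.1% of all measured genes, so the count does not set them apart. The median log2 ratio of the class II genes was -0.13, against -0.03 over all measured genes, and 8 had a ratio below 1. Cd74 had 14172 and 14084 CPM, a ratio of 0.994, and H2-Aa 4765 and 4478 CPM, a ratio of 0.940. H2-Ob, a subunit of the H2-O regulator of peptide loading, had 252 and 177 CPM, a ratio of 0.701. Of 10 MHC class I genes 0 passed, with a median of 0.01. Psmb9, a subunit of the immunoproteasome, had 123 and 167 CPM, a ratio of 1.37 (1.12 to 1.66).

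Few measured genes of trafficking, survival and activation passed 1.5-fold. Of 15 trafficking genes 14 were measured and 0 passed, beside 7.1% of all measured genes, so 0 of 14 does not set them apart. The median log2 ratio of the trafficking genes was -0.17. Itga4, the alpha-4 integrin chain, had 347 and 247 CPM, a ratio of 0.712 (0.619 to 0.817), and Cxcr4, the receptor of Cxcl12, 587 and 445 CPM, a ratio of 0.758. The Cxcr4 ratio was 0.870 in Xist cells and 0.598 in Y-linked cells. S1pr1, the receptor for exit from tissue, was level at 300 and 299 CPM. Of 20 survival and costimulation genes 14 were measured and 0 passed, with a median of -0.01, and Tnfrsf13c had 179 and 178 CPM. Of 21 immediate early and heat shock genes 19 were measured and 1 passed (Hsph1, lower), with a median of -0.18, beside the same 4.42%. Of 17 interferon-stimulated genes with a row in the files 11 were measured and 2 passed, both lower, Irgm1 at 43.5 and 26.4 CPM and Ifit3 at 21.4 and 11.3 CPM. Irgm1 had 71 and 35 UMIs and Ifit3 35 and 15, and of all genes with 100 to 199 UMIs 6.04% passed 1.5-fold in either direction, and 13.8% of those with 50 to 99. In T cells Ifit3 was 1.64-fold higher in the KO library (1.15 to 2.37). The median of the 11 was -0.20, and it was -0.06 in Xist cells and -0.38 in Y-linked cells.

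None of the measured genes of the mTORC1 pathway, the growth pathway that Tsc1 restrains, passed 1.5-fold in B cells. Of 18 genes 11 were measured and 0 passed 1.5-fold in either direction, with a median log2 ratio of -0.06. Of all measured genes 7.1% passed, so 0 of 11 does not set the pathway apart. Sesn1, a leucine sensor that restrains mTORC1, had 183 and 146 CPM, a ratio of 0.802, and Rheb, the GTPase that activates mTORC1, 97.4 and 92.8 CPM. Of 10 cell cycle genes 3 were measured and 0 passed. Of 6 marginal zone genes 5 were measured and 1 passed, Cd9, a tetraspanin, at 22 and 28 UMIs, a ratio of 1.57 (0.865 to 2.88), beside 2.68% higher among all measured genes and 13.8% past 1.5-fold either way at 50 to 99 UMIs. Of 9 class switch and memory genes 2 were measured and both were past 1.5-fold higher, Ighg1 and Ighg2b, whose UMIs came from 1 and 1 cells in the flox library and from 2 and 5 cells in the KO library.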

How the data were processed

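The members and the gene lists were chosen with earlier results of these data known. The authors deposited raw UMI counts per gene and barcode, unfiltered. Cell Ranger 2.1.1 and mm10 are given in the submitters' processing notes, but per the file headers the matrices came from Cell Ranger 4, and which version gave the counts could not be settled. The B cell rule was applied to barcodes with at least 1500 UMIs and 200 genes, UMIs were summed over the B cells of each library, and sums were given as CPM, UMIs per 1000000. Intervals were exact Poisson (CPM), conditional binomial (ratios) and Clopper-Pearson (shares), computed in scipy 1.17.1 and tested on simulated counts. A gene with at least 50 UMIs was measured. The text names the gate genes, Tsc1 and Ppp1r1b. It names the 12 highest and 12 lowest ratios of the 2424 genes ranked, by the interval bound nearest to 1. It also names the 15 genes most restricted to B cells and the 12 most variable ones. Named too are list members with the most UMIs (up to 6 a list) or past 1.5-fold. Bach2, Cd81, Id3, H2-Ob, Psmb9 and the genes of single cells described one by one were chosen after their values were seen. For scaling alternatives, edgeR 4.0.16 and DESeq2 1.42.0 were used without a test, and Scrublet ran in scanpy 1.11.5. Gene coordinates came from GENCODE M21. Of the list symbols, 1 (Mx1) had no row. Some results are not reported here.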

Additional observations from a re-analysis of the deposited data

Results flagged for a closer look

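Rabep1 and Ifit3 differed in direction between B cells and T cells under the same contrast. Rabep1 was 1.85-fold lower in the B cells of Tsc1 RPE KO (1.26 to 2.75), from 91 and 40 UMIs, and 1.69-fold higher in the T cells (1.16 to 2.48). Ifit3, an interferon-induced gene, was 1.89-fold lower in the B cells (1.01 to 3.73), from 35 and 15 UMIs, and 1.64-fold higher in the T cells (1.15 to 2.37), from 52 and 85 UMIs. With 1 library per genotype the difference between the cell types was not tested. The haemoglobin genes Hba-a1, Hba-a2, Hbb-bs and Hbb-bt and the fibroblast gene Dcn were past 1.5-fold higher in the B cells of the KO library, and their ratios in T cells were 0.282, 0.381, 0.360, 0.415 and 0.325. Of the B cell UMIs of these 5 genes in that library, 1 cell gave between 86.1% (Dcn) and 99.4% (Hba-a1). Without the mixed barcodes the B cell ratios were 0.189, 0.252, 0.435, 0.393 and 0.889, in the same direction as in T cells, and these differences were not tested either.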

How the results depend on the processing

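The B cell share stayed within its counting interval in both libraries under the alternatives run: UMI minimums of 1000 and 3000, marker sums of 2 and 5, and doublets, shared barcodes or mixed barcodes left out. The lambda share did so too, except with over 50% of light chain UMIs asked, at 9.16% (flox) and 11.3% (KO). The kappa share fell from 60.6% (flox) and 58.0% (KO) to 25.2% and 31.0% with over 90% asked. Genes past 1.5-fold, 154 higher and 254 lower of 5745 measured, numbered 101 and 129 of 2902 with cells thinned to 1500 UMIs, and 80 and 83 of 1579 with the 73 and 87 cells that had no UMI of another type's markers. They numbered 154 and 157 of 3469 in Xist cells and 80 and 202 of 2533 in Y-linked cells, so the excess of lower genes was nearly absent in Xist cells. The Y-linked class held 135 B cells in the flox library and 80 in the KO library. Those 80 included the mixed barcode with 12000 erythroid UMIs, which lowers the CPM of all other genes there. Its effect on the excess was not tested. Genes past 1.5-fold numbered 484 and 701 of 8089 with a minimum of 20 UMIs, 11 and 15 of 2045 with 200, and 1363 and 1628 of 11399 with no filter, and 24 and 25 passed 2-fold. Fewer cells or UMIs leave fewer genes measured, so these counts are not to be read without their totals. Subtracting free RNA gave 763 lower, and 226 without the mixed barcodes, an alternative chosen after seeing the data. That subtraction took 24.6% of the KO library's UMIs with the mixed barcodes and 0.639% without them. Of the ranked genes, Cmpk2 (ratio 1.16) and Hsph1 (1.01) turned in Xist cells and Slamf7 (0.633, from 9 and 7 UMIs) in cells without other markers, and the cause was not tested. Without mixed barcodes 10 of 12 higher and 10 of 12 lower ranked genes were named again. Scaling moved the median log2 ratio from -0.03 to -0.02 with TMM (167 higher, 235 lower), to -0.01 with median of ratios (184 and 225), and to 0.0012 with the total without immunoglobulin, haemoglobin, mitochondrial and ribosomal protein genes (188 and 213). No paired analysis was possible because each genotype had 1 library. Leaving out a replicate was not possible for the same reason, and depth limits genes under about 100 UMIs, of which 13.8% passed 1.5-fold.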
